A study of Mus musculus with 8 samples.

Results

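The genes described here are 10 components of the hedgehog pathway: the receptor Ptch1, the decoy receptor Hhip, the co-receptors Gas1 and Boc, the signal transducer Smo, the receptor Gpr161, the inhibitor Sufu and the transcription factors Gli1, Gli2 and Gli3. They were chosen by name, and all 10 were found among the 27110 genes of the deposited table. The tissue was liver of mice at week 7. The 4 LKO libraries (replicates 3, 4, 12 and 13, all labelled female) come from mice whose Pkd1l1 gene, which encodes a polycystin-family membrane protein, was deleted in the liver, and the 4 Fl/Fl libraries (replicates 5, 7 and 9 labelled female, replicate 10 labelled male) are their controls. The treatment label is NT in every library, and the sources used here do not name the promoter that drives the deletion. The labels name hepatocytes and cholangiocytes as the cell type. The RNA was read in bulk, so fewer cells of a type and less RNA per cell cannot be told apart.

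Hedgehog ligands (Shh, Ihh and Dhh) bind Ptch1 and so release Smo, which then gathers in the primary cilium, a sensory antenna of the cell surface. Active Smo lets Gli proteins enter the nucleus as activators. Without ligand, Ptch1 keeps Smo out of the cilium, Gpr161 raises cyclic AMP there, and Sufu and protein kinase A hold Gli2 and Gli3 back or turn Gli3 into a repressor. Ptch1, Hhip and Gli1 are themselves targets of Gli activators, and their RNA is a common readout of the pathway. Cholangiocytes, the cells that line bile ducts, carry a primary cilium, whereas most hepatocytes do not. In the injured liver hedgehog signalling is known mainly for its action on cholangiocytes, stellate cells and fibroblasts.

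The libraries held 71491723 to 76622375 counted reads. Pkd1l1 was read 4 times in all, with 2 reads in LKO 13, 1 each in Fl/Fl 7 and Fl/Fl 9 and 0 in the other 5 libraries, so it could not check the genotype labels at this depth. Hepatocyte markers summed to 121209 to 136476 CPM (read counts scaled to a common library size) in the 7 female livers, and the summed level of 10 cholangiocyte markers was 54.8 to 79.5 CPM there. The male Fl/Fl library lay below every female library in its summed hepatocyte (83565 CPM), stellate cell (236 CPM) and endothelial markers (246 CPM). Its cholangiocyte, portal fibroblast, Kupffer cell and mesothelial sums lay within the female range. Fl/Fl 5 and 7 stood apart in immediate early RNA: the AP-1 gene Fos had 297 and 264 CPM there, against 30.6 CPM in Fl/Fl 9, 4.77 in the male and 4.86 to 12.7 in the LKO livers. For Ptch1, Hhip, Gas1, Smo and those wider pathway genes with an unadjusted p under 0.05 that are described below, values are given with and without these 2 libraries. Of all 16420 genes with enough reads to test, 232 (1.41%) passed an adjusted p of 0.05, with 0.396% lower and 1.02% higher in LKO. Fold changes compare LKO with female Fl/Fl on the log2 scale and carry their standard errors. Adjusted p-values are those of edgeR's quasi-likelihood test over all tested genes, and the male library has a term of its own that leaves it without weight.

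None of the 10 hedgehog genes passed the test. Ptch1 came closest, with LKO values 24.6% below female Fl/Fl in the fit and less spread among LKO than among Fl/Fl livers. Smo and Hhip were also fitted lower, within errors that include no difference. Gas1 had the largest fitted difference, carried by Fl/Fl 5 and 7. Sufu, Gli3, Boc and Gpr161 had fitted differences near 0, and Gli1 and Gli2 were too sparse for the count model. Of the 8 genes tested, 1 had an unadjusted p under 0.05 and was lower, against 6.86% lower and 9.22% higher (16.1% in all) among all tested genes. This gene, Ptch1, was also the 1 gene of the 8 whose LKO and female Fl/Fl values did not overlap. Over all tested genes the values did not overlap in 15.1%, with LKO lower in 6.22% and higher in 8.85%, against 12.5% (1 gene) here. Of the 8 fold changes 7 were negative, with a median log2 of -0.18, against 50.5% negative and a median of -0.0032 over all tested genes. By DESeq2, which gave Gpr161 no adjusted p, 1 of the other 7 passed (Ptch1, lower), where 6.24% of the 14183 genes with an adjusted p did, 2.22% lower. By limma voom 0 of the 8 passed, where 1.19% of all tested genes did.

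Per length, the order of the genes was steep. FPKM (reads scaled to gene length and library size, as deposited) averaged 4.80 ± 2.11 for Gas1, 2.34 ± 0.40 for Ptch1 and 1.87 ± 0.28 for Smo over the 8 libraries (SD, n = 8). Sufu followed at 0.805 ± 0.122 FPKM and Hhip at 0.400 ± 0.065. Gas1, Ptch1 and Smo, 3 membrane proteins, were thus the highest of the 10 per length, while the membrane protein Hhip came after cytoplasmic Sufu. Boc averaged 0.102 ± 0.038 FPKM, Gli3 0.0557 ± 0.0126 and Gpr161 0.0395 ± 0.0131. The lowest FPKM were those of Gli1 at 0.0211 ± 0.0190 and Gli2 at 0.0165 ± 0.0097. The ranges of Smo, Sufu, Hhip and Boc did not overlap between neighbours in this order. Those of Gas1 and Ptch1, of Ptch1 and Smo, and of each neighbouring pair from Boc down to Gli2 did. Ptch1 was nonetheless above Smo in 8 of 8 libraries, and Gas1 above Ptch1 in 7 of 8, the exception being Fl/Fl 9. Gli3 had the highest mean FPKM of the 3 Gli factors, below that of Boc and above that of Gpr161.

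**Figure D1:**
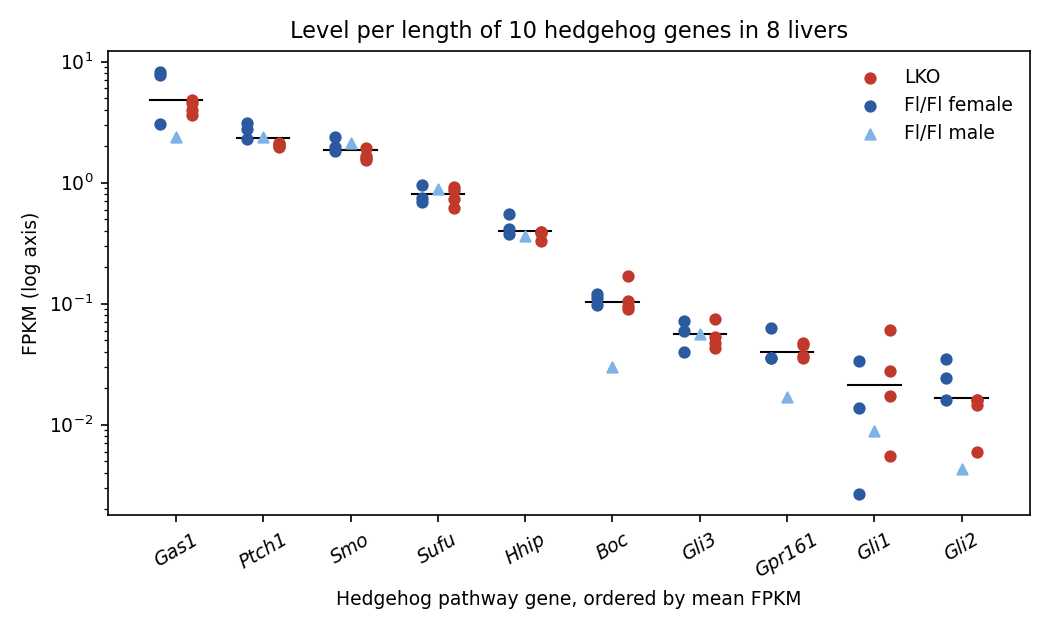
FPKM on a log axis (vertical) for the 10 hedgehog genes (horizontal, ordered by mean), with circles for female livers, a triangle for the male Fl/Fl liver and a line at the mean of 8 libraries. The means run from 4.80 FPKM for Gas1 to 0.0165 for Gli2, and the spread between libraries widens for the sparsely read genes.

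Ptch1 (ENSMUSG00000021466, chromosome 13, 63508328 to 63573598, minus strand, mm10), the ligand receptor that restrains Smo, was read 2864, 2435 and 3211 times in the female libraries Fl/Fl 5, 7 and 9, 2276 times in the male Fl/Fl library and 2143, 2111, 2062 and 2058 times in LKO 3, 4, 12 and 13. Scaled for depth these were 38.2, 31.2, 41.9 and 32.4 CPM in Fl/Fl and 28.2, 29.1, 27.5 and 27.1 CPM in LKO. Each LKO library lay below each Fl/Fl library, the male one included, and the LKO libraries lay within a narrow band. The means were 28.0 ± 0.908 CPM in LKO (SD, n = 4) and 37.1 ± 5.42 in female Fl/Fl (SD, n = 3). The log2 fold change was -0.41 ± 0.10, with a 95% interval of -0.64 to -0.18 (adjusted p = 0.0919, not past the threshold). As a ratio this interval runs from 0.643 to 0.885.

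The call on Ptch1 depends on the method. DESeq2 put it past the threshold (adjusted p = 0.0277), as did edgeR without a filter on low counts (adjusted p = 0.0476), and the other 15 alternatives did not. Over 17 alternatives the log2 fold change ran from -0.59 to -0.31 and the adjusted p from 0.0277 to 0.451, the highest value being that of a fit with no sex term. The fold change was negative in all 17. It was nearest 0 without Fl/Fl 9, the library with the highest Ptch1 level, at -0.31 ± 0.10 (edgeR adjusted p = 0.113). With Fl/Fl 9 as its single female control (Fl/Fl 5 and 7 left out) it was -0.59 ± 0.12 (adjusted p = 0.160), a fit that assumes this library varies like the LKO ones. The authors' deposited table gives Ptch1 a log2 fold change of -0.36 and an adjusted p of 0.224.

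The summed level of the cholangiocyte markers, like Ptch1, did not overlap between the female groups, although no marker passed the test. It was 54.8 to 65.7 CPM in LKO and 66.2 to 79.5 CPM in female Fl/Fl, most of it Spp1, with 0 of 9 tested markers past the threshold and 8 of 9 fold changes negative (none of the 10 was at 0 throughout). The ranges nearly met. In the male library the sum was 56.8 CPM, within the LKO range, while Ptch1 there was above each LKO library. Among the female controls Fl/Fl 9 had the highest Ptch1 level and the lowest cholangiocyte sum. The summed stellate cell markers overlapped between genotypes, at 342 to 427 CPM in LKO and 334 to 374 in female Fl/Fl. No marker of stellate cells, portal fibroblasts, endothelial cells, Kupffer cells, mesothelium or hepatocytes passed the test. Of the 8 hepatocyte markers, 3 had LKO values above all female Fl/Fl values (37.5%, against 8.85% of all tested genes). They were Hnf4a (log2 0.47 ± 0.11, adjusted p = 0.0646), Tat (log2 0.59 ± 0.15, adjusted p = 0.0919) and Serpina1c (log2 0.20 ± 0.09, adjusted p = 0.285). Negative fold changes were found in 3 of the 8, Alb (log2 -0.09), Ttr (log2 -0.09) and Cyp2e1 (log2 -0.06). The male Fl/Fl library was above the LKO mean for Hnf4a (951 against 828 CPM) and Serpina1c (708 against 371 CPM). For Tat it was below that mean (3850 against 4304 CPM). The summed hepatocyte level overlapped between the groups. The part of cholangiocyte or hepatocyte RNA in the Ptch1 difference was not tested.

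**Figure D2:**
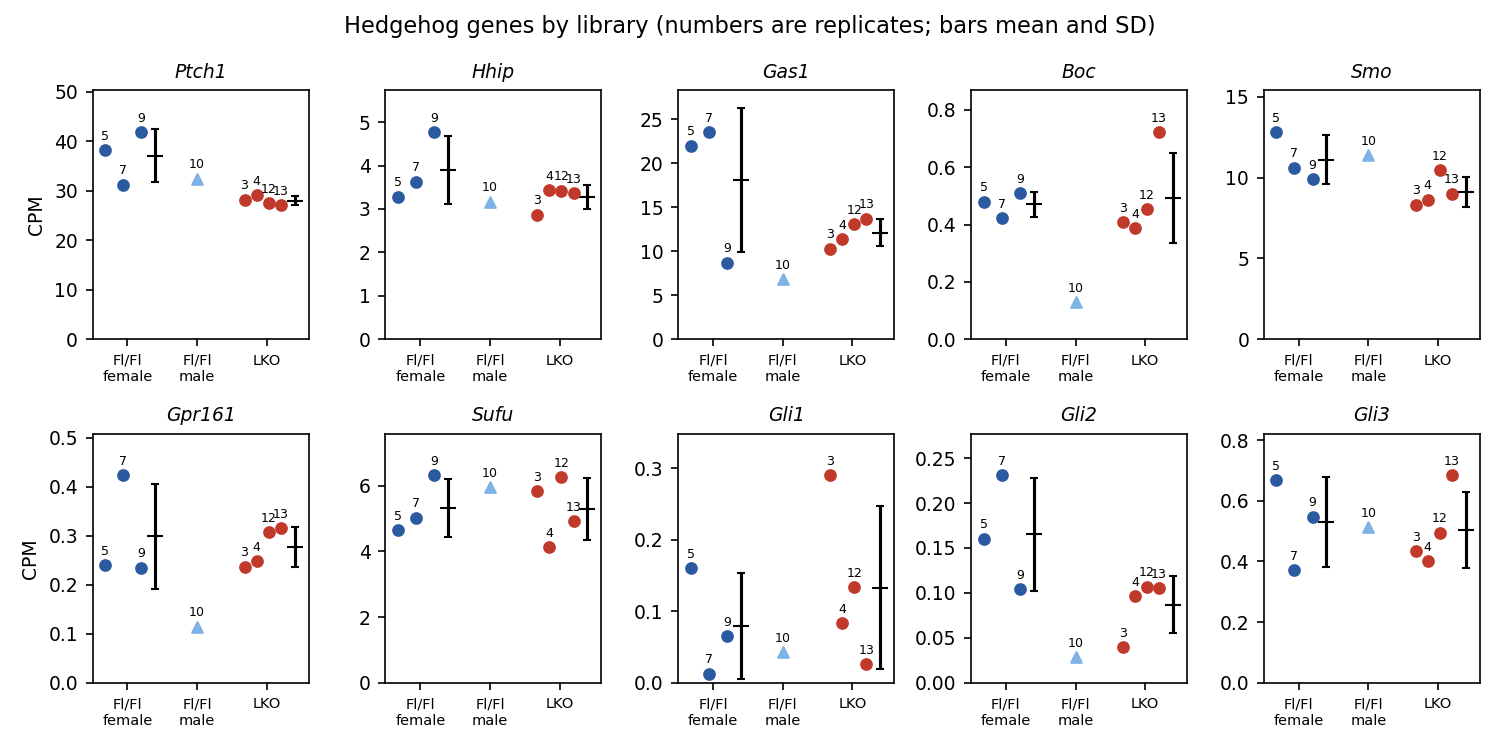
CPM (vertical, from 0) of each hedgehog gene in female Fl/Fl (n = 3), male Fl/Fl (n = 1) and LKO (n = 4) livers, 1 point per library labelled with its replicate number, with mean and SD as bars where there are several libraries. Ptch1 is the gene whose 4 LKO points (27.1 to 29.1 CPM) all lie below its Fl/Fl points, and Gas1 shows Fl/Fl 5 and 7 far above the other libraries.

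Hhip (chromosome 8, 79965851 to 80058006), a membrane-anchored decoy that binds hedgehog ligands, measured 3.28, 3.63 and 4.77 CPM in Fl/Fl 5, 7 and 9, 3.16 in the male Fl/Fl liver and 2.87, 3.44, 3.42 and 3.37 CPM in LKO 3, 4, 12 and 13. Fl/Fl 9 was the highest library, as it was for Ptch1, and the other libraries of both genotypes overlapped. The log2 fold change was -0.25 ± 0.18 (95% interval -0.64 to 0.14, adjusted p = 0.532). It was -0.08 without Fl/Fl 9 and -0.55 ± 0.23 when Fl/Fl 5 and 7 were left out (adjusted p = 0.449), so its size rests on that 1 control.

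Gas1 (chromosome 13, 60174405 to 60177365), a lipid-anchored co-receptor that helps Ptch1 capture ligand, had 22.0 and 23.6 CPM in the control libraries 5 and 7 but 8.69 in Fl/Fl 9 and 6.83 in the male library. In LKO it was 10.3, 11.4, 13.05 and 13.7 CPM in replicates 3, 4, 12 and 13. The LKO livers thus lay between the control libraries, below 2 of them and above the other two. The log2 fold change was -0.58 ± 0.32 (95% interval -1.33 to 0.18, adjusted p = 0.432). Without Fl/Fl 9 it was -0.92 ± 0.13 and past the threshold (adjusted p = 0.00457), and without Fl/Fl 5 and 7 it turned to 0.47 ± 0.21 (adjusted p = 0.469). Fos was high in the same 2 libraries, and its part in the Gas1 values was not tested. The summed portal fibroblast and smooth muscle markers were 32.9, 66.2 and 39.4 CPM in Fl/Fl 5, 7 and 9. The part of these cells in the Gas1 values was not tested either. A long noncoding gene, Gm48488, overlaps Gas1 on the other strand with 64 reads in all against 8256 for Gas1.

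Boc (chromosome 16, 44485049 to 44558897), a co-receptor of the immunoglobulin superfamily, was read 9 times in the male Fl/Fl library and 28 to 55 times in the others. Its means were 0.493 ± 0.156 CPM in LKO and 0.471 ± 0.044 in female Fl/Fl (log2 0.07 ± 0.35, 95% interval -0.71 to 0.85, adjusted p = 0.951). The groups overlapped, with LKO 13 the highest library.

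Smo (chromosome 6, 29735503 to 29761365), the transducer that Ptch1 restrains, measured 12.8, 10.6 and 9.90 CPM in Fl/Fl 5, 7 and 9 and 11.4 in the male library. In LKO it was 8.33, 8.63, 10.5 and 8.99 CPM in replicates 3, 4, 12 and 13. LKO 12 lay above Fl/Fl 9, and the other LKO libraries lay below every Fl/Fl library. The log2 fold change was -0.29 ± 0.13 (95% interval -0.58 to 0.0029, adjusted p = 0.315). It was negative in all 17 alternatives, from -0.37 to -0.13, and passed in none. The value nearest 0, -0.13 ± 0.19 (adjusted p = 0.857), came with Fl/Fl 5 and 7 left out. A processed pseudogene, Gm13717, overlaps Smo with 47 reads against 6072.

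Gpr161 (chromosome 1, 165295789 to 165326745), a ciliary G-protein-coupled receptor that keeps protein kinase A active when ligand is absent, was read 8 to 33 times per library. It averaged 0.277 ± 0.040 CPM in LKO and 0.299 ± 0.107 in female Fl/Fl (log2 -0.11 ± 0.41, 95% interval -1.02 to 0.80, adjusted p = 0.929). Sufu (chromosome 19, 46396896 to 46488804), which binds Gli proteins in the cytoplasm, was read 299 to 484 times and gave the closest match between genotypes: 5.28 ± 0.95 CPM in LKO and 5.33 ± 0.87 in female Fl/Fl. Its log2 fold change was -0.01 ± 0.18, and its interval as a ratio ran from 0.754 to 1.30 (adjusted p = 0.983).

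The 3 Gli factors were read rarely. Gli3 (chromosome 13, 15463235 to 15730026), the main repressor of the family, had 50, 29 and 42 reads in Fl/Fl 5, 7 and 9, 36 in the male library and 33, 29, 37 and 52 in LKO 3, 4, 12 and 13. Its groups overlapped throughout (log2 -0.07 ± 0.35, 95% interval -0.85 to 0.71, adjusted p = 0.949). Gli2 (chromosome 1, 118834132 to 119053619), the main activator, had 12, 18 and 8 reads in Fl/Fl 5, 7 and 9, 2 in the male library and 3, 7, 8 and 8 in LKO 3, 4, 12 and 13. Its mean was 0.0870 CPM in LKO and 0.165 in female Fl/Fl, a difference of -0.0780 CPM (exact permutation test, 35 splits, two-sided, p = 0.171).

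Gli1 (chromosome 10, 127329882 to 127341974), a target and amplifier of the pathway, had 12, 1 and 5 reads in Fl/Fl 5, 7 and 9, 3 in the male library and 22, 6, 10 and 2 in LKO 3, 4, 12 and 13. The 22 reads of LKO 3 and the 2 reads of LKO 13 belong to the same genotype, so the spread within LKO covered that of all libraries but Fl/Fl 7. The means were 0.133 ± 0.113 CPM in LKO and 0.0794 ± 0.0747 in female Fl/Fl (exact permutation test, 35 splits, two-sided, p = 0.571, the smallest possible being 0.0571). Without LKO 3 the difference of 0.0537 CPM shrank to 0.00152. On the other strand Gli1 overlaps Arhgap9 (1699 reads in all) only in a short end stretch, from 127329882 to 127329943. It also overlaps the antisense gene Gm47200 (27 reads, 14 of them in Fl/Fl 5) from 127332391 to 127341974. No source used here says that strand was used in counting. Reads from the shared stretches therefore cannot be assigned with certainty, and how many of the 61 reads given to Gli1 fall there is not known.

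**Figure D3:**
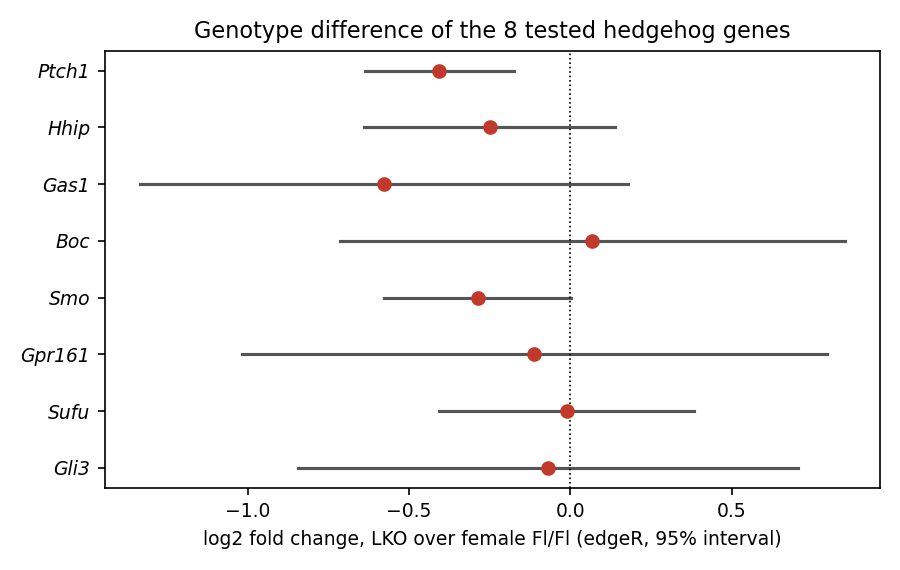
Log2 fold change of LKO over female Fl/Fl (horizontal) with its 95% interval for the 8 hedgehog genes that were tested, ordered as receptors, transducers and Gli3 from the top. The interval of Ptch1 (-0.64 to -0.18) lies wholly below 0, those of the other 7 include 0, and none passed after adjustment over all genes.

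A wider set of 64 hedgehog genes, the 10 included, was read: ligands and the proteins that release them, receptors, regulators of Smo, Gli factors, Gli regulators and Gli target genes. Of these, 60 were found among the deposited genes and 54 were tested, and 0 passed. Of the 54, 5 were lower and 2 higher at an unadjusted p under 0.05 (9.26% and 3.70%, against 6.86% and 9.22% of all tested genes). Their median log2 fold change was -0.05, and that of all tested genes -0.0032. With the 10 genes left out, 23 of 46 fold changes were negative and the median was -0.0023. Of all 54, values did not overlap with LKO lower in 4 (7.41%, against 6.22% of all tested genes). They did not overlap with LKO higher in 4 (7.41%, against 8.85%). Of the 54 fold changes 30 were negative (55.6%, against 50.5% of all tested genes). DESeq2 called 2 of them lower, Ptch1 and Dyrk2, against 2.22% of the genes it tested.

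The ligands were scarce. Shh had 3, 20 and 2 reads in Fl/Fl 5, 7 and 9, 20 in the male library and 2 to 8 in LKO. Dhh had 8 to 9 reads in the female Fl/Fl libraries, 20 in the male one and 0 to 10 in LKO, and its gene overlaps Rhebl1 (163 reads in all against 73). Ihh was the most read ligand, at 1.25, 2.70 and 1.68 CPM in Fl/Fl 5, 7 and 9 and 2.07, 2.40, 1.39 and 2.91 CPM in LKO 3, 4, 12 and 13 (log2 0.22 ± 0.30, adjusted p = 0.782). The male library held 8.89 CPM of Ihh, above every female library of either genotype, and with 1 male liver its sex and its identity cannot be told apart. Of 6 tested genes for ligands and their release 0 passed. Those with the smallest p were Scube1, a secreted protein of the family that helps free lipid-modified ligand, at 0.406 CPM in LKO and 0.230 in female Fl/Fl (log2 0.81 ± 0.44, adjusted p = 0.396), and Hhat, which adds the palmitate to the ligand, at log2 0.48 ± 0.31 (adjusted p = 0.492).

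Of the 7 tested genes in the list of receptors, co-receptors and decoys 0 passed, and 6 had negative fold changes. Cdon, a co-receptor and the paralog of Boc, had 1.81 to 2.69 CPM in female Fl/Fl and 1.42 to 1.85 in LKO, with 0.926 in the male library. The groups overlapped, and the log2 fold change was -0.50 ± 0.21 (adjusted p = 0.283), or -0.15 ± 0.31 with Fl/Fl 5 and 7 left out (adjusted p = 0.910). Lrp2, a large endocytic receptor, averaged 0.326 CPM in LKO and 0.424 in female Fl/Fl (log2 -0.38 ± 0.45, adjusted p = 0.739).

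Smo and its ciliary regulators, Gpr161 among them, gave no call among 14 tested, and 6 of the 14 fold changes were negative. Inpp5e, a phosphoinositide phosphatase of the cilium, had 11.0 and 9.34 CPM in Fl/Fl 5 and 7 but 5.48 in Fl/Fl 9, 6.54 in the male library and 5.60 to 6.40 in LKO (log2 -0.50 ± 0.20, adjusted p = 0.259). Fl/Fl 9 thus lay below every LKO library. The log2 fold change was -0.75 ± 0.14 with Fl/Fl 9 left out (adjusted p = 0.0134) and 0.14 ± 0.20 with Fl/Fl 5 and 7 left out (adjusted p = 0.858). An end of Inpp5e overlaps an end of the far more abundant Pmpca (37872 reads in all against 4247), so its reads in that stretch are uncertain without strand. Iqce, which anchors the Evc complex at the cilium base, was at log2 -0.24 ± 0.14 (adjusted p = 0.416).

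Among 14 tested regulators of Gli proteins, Sufu included, 0 passed, with negative fold changes in 7. Dyrk2, a kinase that phosphorylates Gli2 and marks it for degradation, measured 64.5, 61.5 and 66.1 CPM in Fl/Fl 5, 7 and 9, 63.0 in the male Fl/Fl liver and 51.0, 53.3, 53.6 and 53.8 CPM in LKO 3, 4, 12 and 13. As for Ptch1, the LKO band was narrow and below all 4 Fl/Fl libraries (log2 -0.28 ± 0.08, adjusted p = 0.113), and with Fl/Fl 5 and 7 left out the log2 fold change was -0.33 ± 0.12 (adjusted p = 0.371). An overlapping gene on the other strand, 4932442E05Rik, had 464 reads in all against 34964. Gsk3a, a kinase that phosphorylates Gli proteins, was at 24.1, 21.2 and 26.5 CPM in Fl/Fl 5, 7 and 9 and 34.5, 30.1, 26.6 and 28.7 in LKO 3, 4, 12 and 13. The groups did not overlap, but the male Fl/Fl library was at 33.3 CPM, within the LKO range (log2 0.33 ± 0.11, adjusted p = 0.188). With Fl/Fl 5 and 7 left out the log2 value was 0.17 ± 0.16 (adjusted p = 0.759). Its antisense gene 9130221H12Rik had 374 reads against 16806.

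Target genes of Gli factors outside the pathway gave no call among 12 tested, with 7 negative fold changes. Foxf1, a mesenchymal forkhead factor, was at 3.59, 2.52 and 4.06 CPM in Fl/Fl 5, 7 and 9 and at 4.69, 5.07, 4.34 and 4.07 in LKO 3, 4, 12 and 13, with 1.78 in the male library (log2 0.42 ± 0.19, adjusted p = 0.303). With Fl/Fl 5 and 7 left out the log2 value was 0.15 ± 0.24 (adjusted p = 0.868). Spp1, the secreted protein osteopontin and also a cholangiocyte marker, was at 38.2 CPM in LKO and 44.9 in female Fl/Fl (log2 -0.23 ± 0.12, adjusted p = 0.359). The targets therefore lay on both sides of 0. Foxf2, Foxl1 and Nkx2-5 of this list and the ligand carrier Scube2 were not analysed here.

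**Figure D4:**
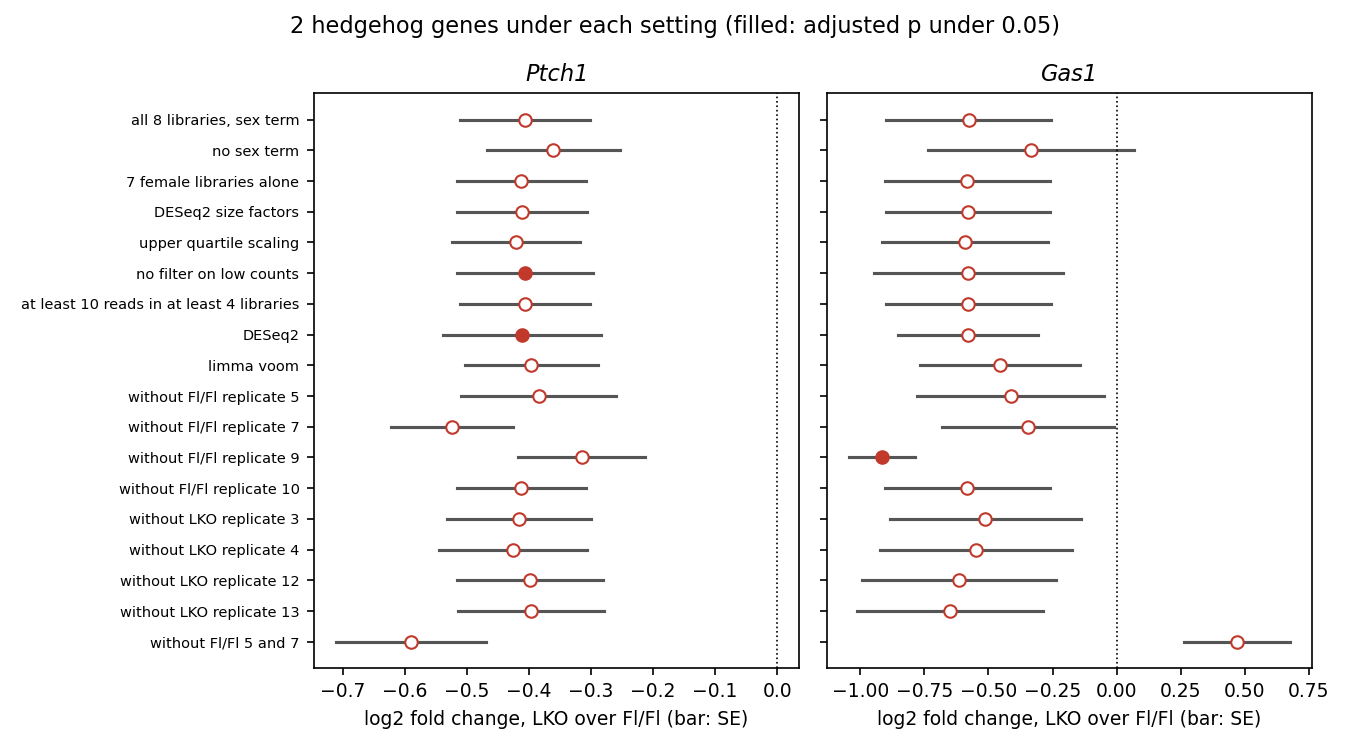
Log2 fold change (horizontal, bars show the standard error) of Ptch1 and Gas1 under the fit with all libraries and a sex term and under 17 alternatives, filled where the adjusted p was under 0.05. Ptch1 stays between -0.59 and -0.31 and is filled in 2 alternatives, while Gas1 runs from -0.92, with Fl/Fl 9 left out, to 0.47, with Fl/Fl 5 and 7 left out.

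The genes whose pattern over the 8 libraries was most like that of Ptch1 were read as a description, by the correlation of log2 CPM over 12336 genes averaging at least 1 CPM. The highest were Idi1 (r = 0.97), an enzyme of sterol synthesis, the membrane protease Adam10 (r = 0.96), the cell cycle phosphatase Cdc25a (r = 0.95), Mdfic (r = 0.95) and Osgin2 (r = 0.94). The lowest were Atp5o (r = -0.95), a subunit of the mitochondrial ATP synthase, Uqcrb (r = -0.95), a subunit of respiratory complex III, Speg (r = -0.95), Faah (r = -0.92) and Abhd3 (r = -0.92). The 8 points share the genotype difference and the library depth, and the genes were picked as extremes. Of the 10, Idi1 fell, from 178 CPM in female Fl/Fl to 120 in LKO (adjusted p = 0.0411), and the other 9 did not pass.

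Promoter windows (250 bases before to 50 after a start, RefSeq, GRCm38.p6) were at hand for 8 of the 10 genes, without Gli1 and Boc. None of them held the Gli consensus GACCACCCA on either strand, exactly or with 1 mismatch. Of all 32851 windows 0.253% held it exactly and 6.74% with at most 1 mismatch, so these letters are rare in windows of this length. The 8 genes had 9 windows, too few for the lack of a match to tell them from other genes. Sites outside these windows were not read, so whether Gli factors act on these genes was not tested.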

How the data were processed

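Total RNA of 8 livers was sequenced. The authors deposited read counts per gene and library, signal values that are those counts divided by 1 size factor per library (not used for tests), FPKM values, and their own log2 fold changes with p-values. Tools named in the submitters' processing notes, with no role given, are STAR, featureCounts, HTSeq, fastp, edgeR, DESeq and DESeq2, and the build is mm10. Annotation release and strand setting are not given in the sources used here. No value column was left unmapped.

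The counts were fitted in R 4.3.3 with edgeR 4.0.16 (filterByExpr, TMM, quasi-likelihood test with robust options, genotype and sex as terms, 8 libraries). Two-sided p-values were adjusted by Benjamini-Hochberg over the 16420 tested genes. DESeq2 1.42.0 and limma 3.58.1 voom were alternatives. Standard errors were derived from the log2 fold change and its F statistic. CPM use TMM-scaled totals, and 3 reads are worth 0.0385 to 0.0428 CPM (counting error only). Gli1 and Gli2 missed the filter and were tested by an exact permutation of CPM over the 7 female libraries, with all 8 libraries as an alternative chosen after seeing the data. Likeness to Ptch1 used log2(CPM + 0.1). The procedure was tested on simulated data.

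Named genes are the 10 members, the ligands, the 2 non-member genes with the smallest p of each wider list, the 5 most and 5 least like Ptch1, and Pkd1l1. Fos, Spp1 as a marker, the hepatocyte markers and overlapping genes were added for context after their values were seen, as was Lrp2. One result that this rule covers is not reported here. The members and lists were chosen with earlier results of these data known. The labels do not state separate litters, so what the p-values weigh is the spread among these samples, which may be technical.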

Additional observations from a re-analysis of the deposited data

Results flagged for a closer look

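LKO 3 lay far from the other 3 LKO libraries in 2 of the 10 genes. For Hhip it held 2.87 CPM, with 3.37 to 3.44 CPM in the other three. For Gli2 it held 0.0395 CPM, from 3 reads, with 0.0967 to 0.107 CPM in the others. In all, 20 groups of 4 libraries were examined, and chance sets a library apart in about 1 of 20. Without LKO 3 the log2 fold change of Hhip was -0.20 ± 0.19 (edgeR adjusted p = 0.670).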

How the results depend on the processing

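No paired analysis was possible because the replicate numbers of the 2 genotypes do not overlap. Genes called higher and lower in LKO (167 and 65) were 14 and 4 at an adjusted p of 0.01, 357 and 174 at 0.1, 1 and 0 with no sex term, 320 and 142 with no filter on low counts, 570 and 315 with DESeq2 and 8 and 18 without Fl/Fl 5 and 7. They ran from 2 to 476 and from 2 to 251 when 1 library was left out. The count of the 10 hedgehog genes called lower was 0, and 1 (Ptch1) at 0.1, with no filter and with DESeq2. It was 0 to 1 with 1 library left out, the 1 being Gas1 without Fl/Fl 9. In the wider lists the counts were 1, 1 and 2 in those settings and 0 to 2 with 1 library left out, the 2 being Gas1 and Inpp5e without Fl/Fl 9. None of the 10 was called higher in any setting. For Ptch1, Smo and Hhip the log2 fold change stayed negative in all 17 alternatives, of which the fit to female libraries and the fit without Fl/Fl 10 are the same fit in substance. Genes fitted near 0 turned sign: Gpr161 to 0.13 with no sex term, 0.21 without Fl/Fl 7, and 0.23 when Fl/Fl 5 and 7 were both left out; Gli3 to 0.13 without Fl/Fl 5 and 0.03 without LKO 4; Boc to -0.01 without Fl/Fl 7, -0.18 without LKO 13 and -0.053 with Fl/Fl 5 and 7 left out; Sufu to 0.12 without Fl/Fl 9, 0.09 without LKO 4 and 0.01 without LKO 13. With 1 library left out, the log2 fold changes of these genes ran from -0.26 to 0.21 (Gpr161), from -0.28 to 0.13 (Gli3), from -0.18 to 0.17 (Boc) and from -0.10 to 0.12 (Sufu). Gas1 turned to 0.47 without Fl/Fl 5 and 7. The causes were not tested. Reads were few for Gli1, Gli2, Gpr161, Boc and Gli3, at 1 to 55 per library. The permutation tests of Gli1 and Gli2 kept their signs under each alternative run.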
